A study of Arabidopsis thaliana with 7 samples.

Results

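The nuclear genome of Arabidopsis thaliana carries 625 transfer RNA (tRNA) genes in the RefSeq gene table of assembly TAIR10.1. All 625 were taken, and each was scored by whether a peak of the ZF-DDR5 ChIP-seq list overlapped it by at least 1 bp. A peak touched 63 of them. The series holds 7 ChIP-seq samples of seedlings collected at day 12: ZF-DDR5 (n = 2), ZF-DDR4 (n = 2), Col-0, untransformed plants (n = 2), and 1 more Col-0 sample, which shares the mark g3 with the ZF-DDR5 samples. ZF-DDR4 plants express a fusion of DDR4, a FLAG tag and an engineered zinc finger, and ZF-DDR5 plants a fusion with DDR5, as the name reads. Anti-FLAG is labelled as the antibody for ZF-DDR4 and its Col-0 samples, while the ZF-DDR5 labels carry no antibody entry. The sources used here do not name the promoter of either fusion. The list is deposited under ZF-DDR5 replicate 1 and holds 9999 peaks with positions and no score, so every value below describes 1 list, without replicate error and with unknown depth, and nothing was compared with Col-0.

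Transfer RNA genes are among the shortest genes of the nucleus, and they are transcribed by RNA polymerase III. Their promoter lies inside the transcribed sequence, as the A box and the B box, which the factor TFIIIC binds before TFIIIB and the polymerase are brought in. Each amino acid is served by many near-identical gene copies, most of them scattered through the genome and some in tandem arrays. ZF-DDR5 joins an engineered zinc finger to DDR5, a protein of the family with a DDT domain, whose members are known as partners of ISWI chromatin remodellers. No sequence of the tRNA genes was used here, so copies were told apart by their locus names and by the amino acid in their synonyms, which 623 of the 625 genes carry. The table names no anticodon, and the strand of the genes was not used either.

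Because the genes are only 69 to 90 bp long (median 73 bp), they were set beside every window of 73 bp on the 5 nuclear chromosomes. A peak touched 10.1% of tRNA genes (63 of 625, 95% Wilson interval 7.96% to 12.7%) and 5.51% of windows. It touched 23.6% of all 37899 nuclear genes, most of which are far longer. Wilson intervals here cover counting error only, and tRNA genes are not replicates of a condition. Outside protein-coding genes, 10.7% of tRNA genes (60 of 562) were touched, against 1.8% of the windows there. The whole gene lay inside the peak in 60 of the 63 cases, or 9.6% of all tRNA genes, against 4.3% of windows. A peak centre lay in 15 of the 625 genes (2.4%), against 0.613% of windows. No tRNA gene was touched by more than 1 peak (0 genes with 2 or more), and 61 peaks accounted for the 63 genes.

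Alanine tRNA genes had the highest share of any amino acid. A peak touched 24 of the 33 alanine genes (72.7%, Wilson interval 55.8% to 84.9%) and 39 of the 592 remaining genes (6.59%, 4.86% to 8.88%). Alanine genes thus made up 5.28% of tRNA genes and 38.1% of those with a peak. The 33 genes were all 73 bp long, the same as the median of all tRNA genes. The difference was seen on every chromosome, with 6 of 8 alanine genes against 6 of 230 other genes on chromosome 1, 5 of 6 against 5 of 89 on chromosome 2 and 5 of 6 against 6 of 86 on chromosome 3. On chromosome 4 it was 4 of 5 against 7 of 72, and on chromosome 5 it was 4 of 8 against 15 of 115. Over the chromosomes the share was 74.3% ± 14.0 for alanine genes and 7.59% ± 3.96 for the others (SD, n = 5 chromosomes of the same list). Alanine was 1 of 20 amino acids examined and was singled out after its values were seen, so no test is attached to it.

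**Figure D1:**
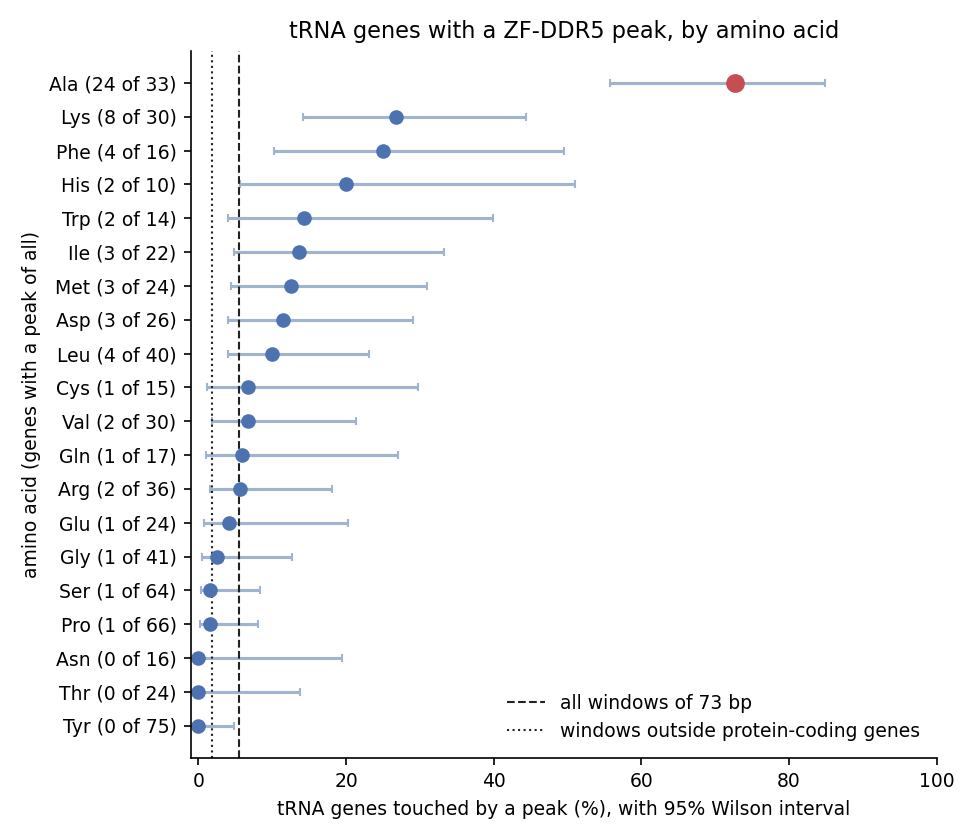
Percent of tRNA genes touched by a ZF-DDR5 peak (x axis) for each of 20 amino acids (y axis, with the number of genes), points with 95% Wilson intervals. Alanine, at 72.7%, lies to the right of every other amino acid, the next being lysine at 26.7%; the dashed line marks all windows (5.51%) and the dotted line windows outside protein-coding genes (1.8%).

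Lysine, phenylalanine and histidine genes followed at a distance. A peak touched 8 of 30 lysine genes (26.7%, Wilson interval 14.2% to 44.4%), 4 of 16 phenylalanine genes (interval 10.2% to 49.5%) and 2 of 10 histidine genes (20.0%, 5.67% to 51.0%). These 3 intervals lay above the share of all windows and overlapped each other. The intervals of 15 other amino acids held the window share. Among them were tryptophan (2 of 14), isoleucine (3 of 22), methionine (3 of 24), aspartate (3 of 26), leucine (4 of 40), cysteine (1 of 15) and valine (2 of 30). Glutamine (1 of 17), arginine (2 of 36), glutamate (1 of 24), glycine (1 of 41), serine (1 of 64) and proline (1 of 66) were the others with a peak. No peak touched a threonine gene (0 of 24, which allows a share of up to 12.5%), an asparagine gene (0 of 16, up to 18.8%) or a tyrosine gene (0 of 75, up to 4.0%). These limits are 3 counts of the total. By the Wilson interval, whose upper bound for tyrosine is 4.87%, tyrosine was the only amino acid of the 20 that lay wholly below the window share of 5.51%. Its interval held the 1.8% of windows outside protein-coding genes. That bound treats the 75 genes as independent, but most of them lie in the long array described below. Of the 18 single ones none had a peak (0 of 18, up to 16.7%). Outside runs of 6 or more genes it was 0 of 19, with an upper Wilson bound of 16.8%, above the window share. The 2 genes with no amino acid named had no peak and are counted among the 592.

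Without alanine and lysine genes, 31 of 562 tRNA genes (5.52%, 3.91% to 7.72%) had a peak, an interval that holds the 5.51% of all windows. Alanine and lysine had the highest shares in this same list, so leaving them out lowers the rest by construction. Against windows in like positions the values differed, since most tRNA genes lie outside protein-coding genes, where fewer windows are touched. Outside protein-coding genes, 29 of 502 genes that serve neither alanine nor lysine were touched (5.78%, 4.05% to 8.17%), against 1.8% of windows.

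Many alanine genes lay near the middle of their peak. At 13 of the 24 genes with a peak, the peak was centred no more than 50 bp from the gene (54.2%, 35.1% to 72.1%). The same held for 11 of the 39 other genes with a peak (28.2%, 16.5% to 43.8%), and for 26.4% of all windows that a peak touched. The median distance between the centres of peak and gene was 80.5 bp at alanine genes and 158 bp at the others. Seen over all genes, 13 of 33 alanine genes (39.4%) and 11 of 592 other genes (1.86%) had a peak centred on them or within 50 bp, against 1.45% of windows. Most of these windows overlap a protein-coding gene, whereas most tRNA genes do not. Outside protein-coding genes it held for 253073 of 53032011 windows, a lower share than that of all windows. Peaks so placed had a median width of 412 bp at alanine genes (306 to 1480 bp) and 376 bp at other genes (296 to 1066 bp). The median width of all peaks in the list was 484 bp.

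The most closely centred peaks on alanine genes, each within 16 bp of the gene's centre, lay on all chromosomes except chromosome 4. The peak on AT1G07580 (chromosome 1, 2334677 to 2335050, TAIR10, counted from 1) was 374 bp wide and centred 5 bp from the gene's centre. AT5G39895 (chromosome 5, 15976164 to 15976492) had a peak of 329 bp, also 5 bp off centre. Neither peak was centred in a protein-coding gene. AT3G28685 (chromosome 3, 10752268 to 10752679) had one of 412 bp, 6 bp off centre, and its nearest protein-coding gene was 2305 bp away. AT2G03490 had a peak of 465 bp, 8 bp off centre, and lies 105 bp from QUL2. AT5G01365 had one of 421 bp, 13 bp off. These genes differ widely in their distance to a protein-coding gene, from 17 bp at AT5G39895 to 2305 bp at AT3G28685. On chromosome 2, AT2G22580 (chromosome 2, 9590925 to 9591230) had one of 306 bp, 14 bp off centre, and AT2G30850 one of 355 bp, 16 bp off. The peaks on AT2G02900 (307 bp) and AT4G12065 (344 bp) were 46 and 45 bp off. On AT2G47100 (432 bp) and AT5G61445 (548 bp) the distance was 52 bp.

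Wide peaks also covered alanine genes. The peak at AT4G23915 was 1833 bp wide (chromosome 4, 12427977 to 12429809), ranked 30 of the 9999 by width, and was centred 742 bp from the tRNA gene inside a protein-coding gene. At AT4G26675 the peak of 1480 bp was centred 86 bp from the gene's centre, again in a protein-coding gene. These were 2 of the 5 peaks on alanine genes centred in a protein-coding gene, together with those at AT4G12065, AT4G27885 (1028 bp) and AT5G07675 (598 bp). The neighbouring alanine genes AT1G13840 and AT1G13850 lay under 1 peak of 1463 bp (chromosome 1, 4741871 to 4743333), with its centre 567 and 529 bp from theirs. AT3G63003 and AT3G63006, beside NPL41, shared a peak of 860 bp (chromosome 3, 23285125 to 23285984). In both pairs the peak covered both genes whole. The remaining alanine genes with a peak were AT1G54670 (1146 bp), AT3G62245 (901 bp) beside the ubiquitin gene UBQ5, AT1G06610 (807 bp), AT1G08870 (790 bp) and AT3G28695 (456 bp).

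**Figure D2:**
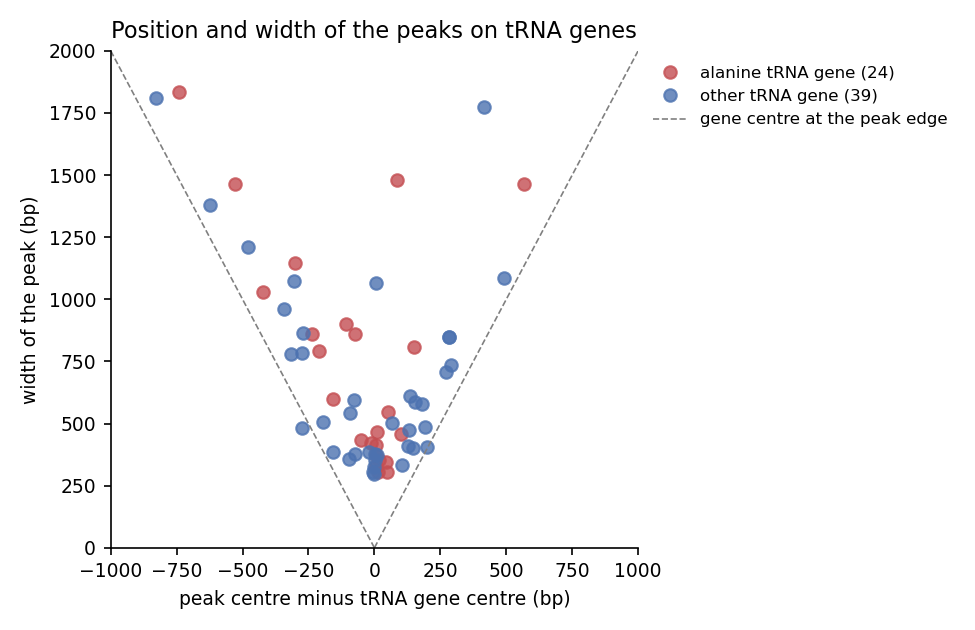
Each point is 1 of the 63 tRNA genes with a peak, by the distance of the peak centre from the gene centre (x axis, bp) and the width of the peak (y axis, bp); dashed lines mark where the gene centre would sit on the peak edge. Of the alanine genes 13 of 24, and of the other genes 11 of 39, have the peak centre in the gene or within 50 bp.

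Of the 9 alanine genes without a peak, 8 were over 2000 bp from the nearest one. The nearest peak was 418 bp from AT5G43455 and 2822 bp from AT1G26490, and at the remaining genes it was 3111 bp (AT3G61755) to 16065 bp (AT1G64420) away. The median over the 9 was 5344 bp, close to the 5013 bp of the 553 other tRNA genes without a peak. The other members of this set were AT2G02600, AT4G11355, AT5G08075, AT5G55505 and AT5G60963. Counting any peak within 250 bp added none to the 24 alanine genes and raised the others to 62 of 592 (10.5%). A distance of 2000 bp or more was also measured at 400 of the 553 others. Under 250 bp from a protein-coding gene, overlaps left out, lay 7 of the 9 alanine genes without a peak and 19 of the 24 with one. Neither anticodon nor sequence of the 2 sets was compared here.

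**Figure D3:**
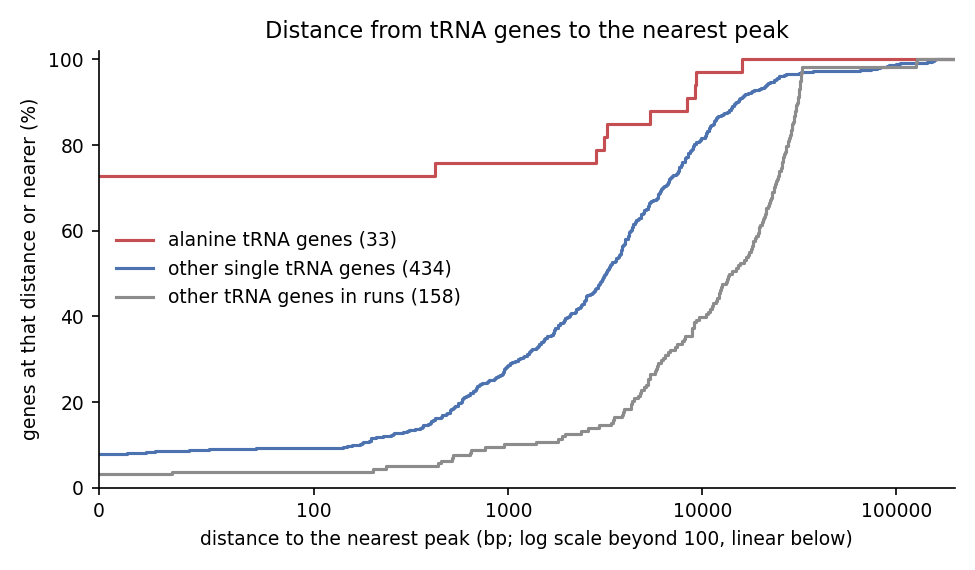
Cumulative percent of tRNA genes (y axis) by distance to the nearest peak (x axis, bp, linear below 100 and logarithmic beyond), for 33 alanine genes, 434 other single genes and 158 other genes in runs. The alanine line starts at 72.7% and is flat up to the gene 418 bp from a peak, whereas the other single genes start at 7.83% and rise steadily, reaching 28.6% under 1000 bp.

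Peak cover of alanine genes was highest at the gene and differed between its sides. At the gene centre 72.7% of alanine genes, 7.6% of other single tRNA genes and 3.16% of other genes in runs lay under a peak, and 4.9% of all bases did. Cover of other single genes was highest, at 10.1%, not at the gene but 750 bp away on the lower-coordinate side. At 500 bp on the lower-coordinate side cover was 30.3% for alanine genes and 7.83% for other single genes. At 500 bp on the higher-coordinate side it was 9.09% for alanine genes and 4.84% for other single genes. Between 1000 and 3000 bp away on the lower-coordinate side, cover averaged 8.72% for alanine genes and 6.59% for other single genes. On the higher-coordinate side it averaged 2.73% for alanine genes, with 0.0% at every step from 2050 bp on, and 6.0% for other single genes. With 33 alanine genes, 1 gene is 3.03%, and the sides are those of the chromosome, not of the transcript.

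**Figure D4:**
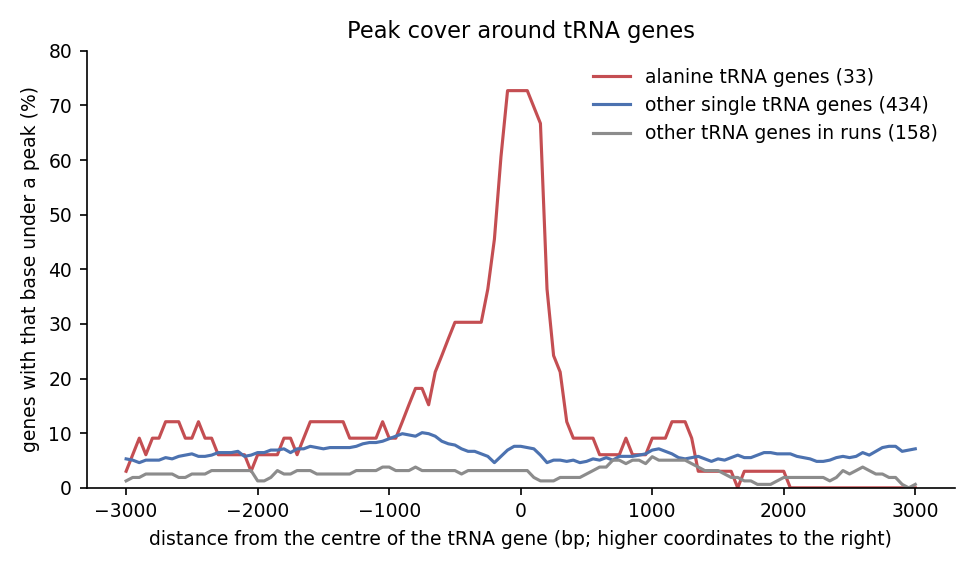
Percent of tRNA genes (y axis) with the base at a given distance from the gene centre (x axis, bp) under a peak, in steps of 50 bp up to 3000 bp on each side, for alanine genes, other single genes and other genes in runs. Cover of alanine genes is 72.7% at the gene and averages 8.72% from 1000 to 3000 bp on the lower-coordinate side and 2.73% on the higher one, while other single genes have 7.6% at the gene and 6.59% and 6.0% on these sides. Cover of other single genes is highest not at the gene but 750 bp away on the lower-coordinate side (10.1%).

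The long arrays of tRNA genes had no peak, whereas pairs had a share above that of single genes. A run was a set of tRNA genes with gaps under 2 kb. Of 163 genes in 23 runs, 9 had a peak (5.52%, 2.93% to 10.2%), against 54 of 462 single genes (11.7%, 9.07% to 14.9%). A peak touched 5.51% of all windows and 1.8% of windows outside protein-coding genes. The share in runs was near that of all windows, but it pools pairs with longer runs that had no peak. Without alanine genes the counts were 5 of 158 (3.16%) in runs and 34 of 434 (7.83%) among single genes. All 9 genes in runs belonged to pairs, where 9 of 28 genes had a peak (32.1%, 17.9% to 50.7%), or 5 of 23 (21.7%, 9.66% to 41.9%) without alanine genes. With the runs of 10 or more genes left out, 9 of 71 genes in runs had one (12.7%, 6.81% to 22.4%), an interval that holds the 11.7% of single genes. Alanine genes, all of those in runs being in pairs, made up 4 of these 9. This subset was not counted without them. None of these differences was tested. The 135 genes in runs of 3 or more had 0 with a peak, which allows a share of up to 2.22%, were they independent. That limit lies above the 1.8% of windows outside protein-coding genes, so the 0 cannot be told apart from such a share. The 135 genes form only 9 runs, 1 of them of 81 genes. Some of them overlap a protein-coding gene, where 8.48% of windows were touched.

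The largest array, on chromosome 1 from AT1G56730 to AT1G57530, holds 54 tyrosine and 27 serine genes over 39685 bp. No peak touched its span, and the nearest peak lay 8889 bp from any of its genes. For the 81 genes this allows a share of up to 3.7%, were they independent. Their median distance to a protein-coding gene was 11730 bp, and a peak touched 1.92% of windows 2000 bp or more from one, less than that limit. Proline genes form 4 arrays of 9, 11, 6 and 6 genes on chromosome 1 and 1 of 9 genes on chromosome 2, also with 0 peaks in their spans. Their nearest peaks were 518 to 10946 bp away. A run of 4 cysteine genes on chromosome 5 lay 4446 bp from a peak. On chromosome 2, the mixed runs from AT2G07752 to AT2G07754 and from AT2G07759 to AT2G07765 lay 126592 and 29532 bp from the nearest peak. Both lie in the same stretch, between a peak ending at 3176652 and one starting at 3526972, with no peak between. Single tRNA genes such as AT2G07743 and AT2G07793 lie in it too. Near-identical copies share reads. How many reads map uniquely to the arrays or to this stretch was not assessed here, and its part in the lack of peaks there was not tested. Nor was it assessed at the tRNA genes with a peak, the alanine genes among them. The long arrays hold no alanine gene.

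Of the 14 pairs, 7 had a peak. In the alanine pairs AT1G13840 and AT1G13850, and AT3G63003 and AT3G63006, a single peak covered both genes. In the other 5 pairs it touched 1 gene only. These were the lysine gene AT1G79290 but not AT1G79300, the leucine gene AT2G36150 but not the asparagine gene AT2G36140, and the leucine gene AT2G36510 but not AT2G36520, just 68 bp apart. In the same way the serine gene AT3G09595 and the phenylalanine gene AT5G55045 were touched, but not AT3G09585 and AT5G55055. The alanine gene AT5G60963, paired with the threonine gene AT5G60966, had none.

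Most tRNA genes lie close to protein-coding genes, and the difference between alanine and other genes was present at matched distance. In the band under 250 bp from a protein-coding gene, overlaps left out, 19 of 26 alanine genes (73.1%, 53.9% to 86.3%) and 29 of 315 other genes (9.21%, 6.49% to 12.9%) had a peak, against 1.87% of windows. Restricted to single genes in that band, the counts were 16 of 22 alanine genes (72.7%) and 25 of 296 others (8.45%). Farther out the alanine genes are few, with 0 of 2 between 250 and 500 bp, 2 of 2 between 500 and 1000 bp, 1 of 1 between 1000 and 2000 bp and 1 of 1 beyond. The other genes had 4 of 49, 2 of 40, 2 of 28 and 0 of 98 in these bands, against 1.37%, 1.64%, 1.88% and 1.92% of windows. Of the tRNA genes that overlap a protein-coding gene, 1 of 1 alanine gene and 2 of 62 others (3.23%, 0.889% to 11.0%) were touched. The latter interval holds the 8.48% of windows. The genes touched were the alanine gene AT4G12065, the methionine gene AT1G11010 and the phenylalanine gene AT5G55045. Some of the 62 lie together in long runs, such as that from AT2G33890 to AT2G33970, so they are not independent. Windows poor in protein-coding genes hold only 12 tRNA genes, with 0 touched and none of them for alanine. The upper Wilson bound of that 0 is 24.2%, above the 2.02% of windows of 73 bp touched there. With so few genes, the 0 cannot be told apart from that share.

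**Figure D5:**
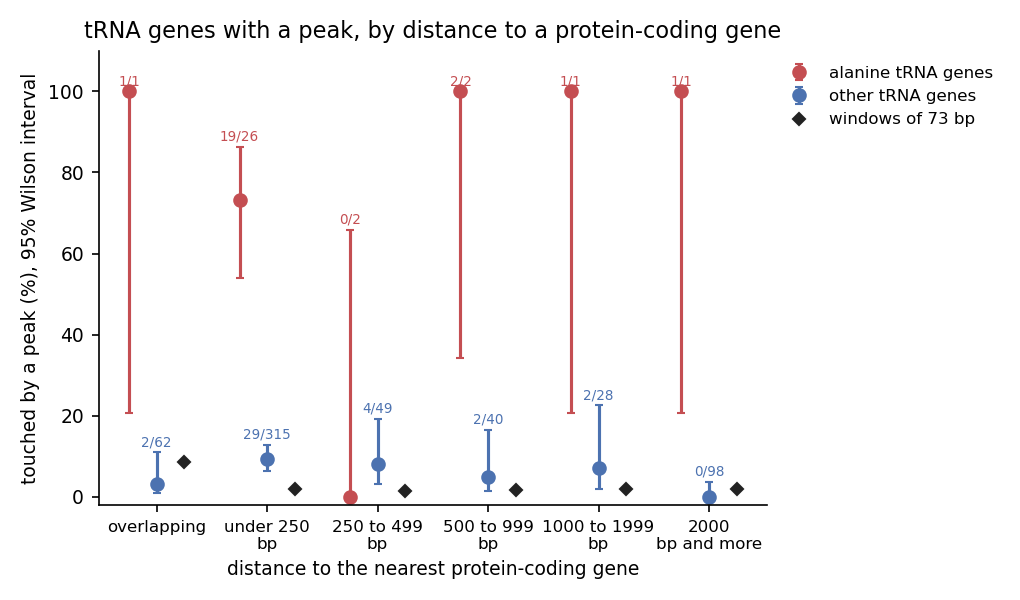
Percent of tRNA genes touched by a peak (y axis, with 95% Wilson intervals and counts) by distance to the nearest protein-coding gene (x axis), for alanine genes, other genes and all windows of 73 bp. In the band under 250 bp alanine genes reach 73.1%, other genes 9.21% and windows 1.87%; the other bands hold at most 2 alanine genes each.

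Fewer of the peaks on alanine genes were centred in a protein-coding gene. In the band under 250 bp, the peak was centred in a protein-coding gene at 4 of 19 alanine genes (21.1%, 8.51% to 43.3%) and at 17 of 29 others (58.6%, 40.7% to 74.5%). Of the windows in that band that a peak touched, 53.0% had it centred so. The intervals of alanine and other genes overlap, and the difference was not tested. In the same band the peak was centred within 50 bp of the tRNA gene at 9 of 19 alanine genes (47.4%) and 8 of 29 others (27.6%), against 18.1% of touched windows. Over the whole list, 84.9% of peaks were centred in a protein-coding gene. Of the 1506 peaks centred elsewhere, 36 touched a tRNA gene (2.39%), and 17 of these touched an alanine gene.

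Outside alanine, 11 genes of 9 amino acids had a peak centred on them or within 50 bp. The lysine gene AT4G12115, beside the sterol methyl oxidase gene SMO1-1, had a peak of 327 bp with its centre on the gene's centre (0 bp off; chromosome 4, 7256288 to 7256614). Another lysine gene, AT4G15775, had the narrowest peak on any tRNA gene, 296 bp wide and 2 bp off centre (chromosome 4, 8979543 to 8979838). The third, AT3G60805, had one of 501 bp, 68 bp off. These 3 are among the 8 lysine genes with a peak. The aspartate gene AT3G51265 (352 bp) and the histidine gene AT4G14345 (379 bp) had peaks 1 bp off centre. The leucine gene AT5G25585 had a wide peak, 1066 bp, that was 5 bp off. The methionine gene AT4G31695, beside the ribosomal protein gene RPS6, had a peak of 307 bp that was 6 bp off, and the valine gene AT3G26747 one of 374 bp that was 11 bp off. The rest were the glycine gene AT2G42420 (385 bp), the phenylalanine gene AT1G68950 (376 bp) and the isoleucine gene AT5G15805 (594 bp).

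At the remaining 28 of these 39 genes the peak centre was over 50 bp away, and at 20 of the 28 it lay inside a protein-coding gene. The widest such peaks covered the leucine gene AT2G36510 (1811 bp, centred 829 bp away), the arginine genes AT1G79980 (1772 bp) and AT2G22280 (1209 bp) and the valine gene AT5G15175 (1378 bp), which lies beside TDP1. Those on AT5G55045 and AT3G09595 were 1085 and 1073 bp wide. The alanine counterpart was 3 of 11 genes with a distant centre inside a protein-coding gene.

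At the edge of the rule of 1 bp, few genes were close. The phenylalanine gene AT5G03452 shared 5 of its 73 bp with a peak, the glutamate gene AT4G34695 shared 42 of 73 bp and the isoleucine gene AT5G56365 shared 72 of 74 bp. Just outside, the serine gene AT5G02725 lay 13 bp from a peak, the glycine gene AT3G58165 22 bp and the proline gene AT2G21360 26 bp. No alanine gene was near the limit.

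Chromosomes 4 and 5 had higher shares among the single genes of other amino acids than chromosomes 1 to 3. They were 7 of 70 (10.0%) on chromosome 4 and 14 of 108 (13.0%) on chromosome 5, against 5 of 113 (4.42%), 3 of 61 (4.92%) and 5 of 82 (6.1%) on chromosomes 1, 2 and 3. The Wilson intervals, for example 7.88% to 20.6% on chromosome 5 and 1.9% to 9.94% on chromosome 1, overlap. The shares of all windows were nearly even, between 5.12% on chromosome 2 and 5.67% on chromosome 1. The single genes counted on chromosome 2 include those in its long stretch without a peak described above, and no share was computed without them.

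The protein-coding genes that make, mature, charge and modify tRNAs had a share with peaks whose interval held that of genes of their length. Of 49 such genes in 4 lists, 17 had a peak (34.7%, 22.9% to 48.7%), against 28.2% of all protein-coding genes and 38.2% of those 2731 to 4640 bp long, which spans the quartiles of the lists' lengths. For the polymerase itself and the TATA-binding protein, 1 of 4 genes had a peak, NRPC2, which encodes a large subunit of RNA polymerase III (617 bp). Of 12 genes for end processing, splicing ligation, the La protein and export, 3 had one, namely the tRNA ligase RNL (2 peaks, the wider 1357 bp), La1 (425 bp) and the tRNase Z gene TRZ4 (341 bp). Of 14 modification genes, 4 had one: TRM10 (733 bp), the tRNA methyltransferase gene DNMT2 (2 peaks, the wider 731 bp), TADA (2 peaks, the wider 349 bp), an arginine tRNA adenosine deaminase, and IPT9 (320 bp), a tRNA isopentenyltransferase.

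Aminoacyl-tRNA synthetases, which charge tRNAs with their amino acids, had peaks in 9 of 19 genes (47.4%, 27.3% to 68.3%). ALATS, the alanyl-tRNA synthetase, had a peak of 807 bp (chromosome 1, 18593936 to 18594742). The methionyl enzyme OVA1 had one of 1342 bp, the tryptophanyl enzyme OVA4 one of 794 bp and the isoleucyl enzyme OVA2 one of 606 bp. SYNC1 and NS2, both asparaginyl enzymes, had peaks of 588 bp (the wider of 2) and 556 bp, and EDD1, a glycyl enzyme, 2 peaks of up to 548 bp. Those at the arginyl enzyme emb1027 and at the seryl enzyme SRS were 430 and 322 bp wide. The interval of this list held both the share of all protein-coding genes and that of genes of similar length.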

How the data were processed

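ChIP-seq of seedlings was deposited as a list of peak starts and ends (bp, counted from 0) and no other values, per the file itself; the deposited list holds no score, signal, fold or p-value. Upstream tools, per the submitters' processing notes, were Bowtie2 2.4.2, fastp 0.20.1, deepTools 3.5.1, Picard 2.25.6 and SAMtools, with the build TAIR10. The sources used here give no peak caller, threshold, control or pooling of replicates, and each could change every count. Per the labels' protocols, chromatin was cross-linked with formaldehyde and precipitated with anti-FLAG, in a text that names only DDR4-ZF lines and Col-0.

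Gene positions came from the RefSeq table of TAIR10.1, whose name differs from the peaks' build, so no gene coordinates are printed. Overlaps, distances, windows at every position (1 bp steps) and Wilson intervals were computed with Python 3.11.15, pandas 2.3.3, numpy 2.4.6 and scipy 1.17.1, after a check on simulated data. Windows poor in genes are 500 kb windows holding fewer protein-coding genes than 50% of the median window. Runs, bands and alternatives are given with the results. With 1 list there is no replicate and no test between groups.

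The members, lists and splits were chosen with earlier results of these data known. Genes are named by rule: a peak centre within 50 bp, the 10 widest and 5 narrowest peaks, pairs with a peak, overlap with a protein-coding gene, the amino acids with the highest and lowest shares (alanine gene by gene, those at 0 by count), and pathway genes with a peak. The genes just inside and outside the overlap limit were added after their values were seen. Pathway lists hold only genes that the table names.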

Additional observations from a re-analysis of the deposited data

How the results depend on the processing

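Of 41 alternatives, 24 stayed inside the 95% interval of the main value and 17 did not. Alternatives for alanine genes, for the other genes and without alanine genes were chosen after seeing the data, except counting each run of alanine genes once, which was planned (71.0%). For all tRNA genes (10.1%), the share was 2.4% counting only centres in the gene, 13.8% and 26.4% with peaks within 250 and 1000 bp, and 5.76% and 4.32% with the wider and the narrower 50% of the peaks. It was 6.59% without alanine genes. For alanine genes (72.7%) the share was 21.2% with centres in the gene, and 39.4% and 33.3% with the wider and narrower 50%. For the others (6.59%) these shares were 1.35%, 3.89% and 2.7%, and 10.5% and 23.6% within 250 and 1000 bp. Single genes (11.7%) had 7.83% and genes under 250 bp from a protein-coding gene (14.1%) had 9.21% without alanine genes. Genes in runs (5.52%) had 12.7% without the runs of 10 or more. Halving the list, a centre rule or a flank changes these shares by construction. Moving the peaks by 50 bp left 24 of 33 alanine genes in both directions. This too was fixed by construction. All 24 lie whole inside their peak and are 73 bp long, so such a move cannot lose any of them. No paired analysis was possible because only 1 sample was analysed here, with no test. With no score in the list, no stricter threshold could be applied. Depth is unknown, so how it limits these counts was not assessed.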

Other observations

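The gene table also lists 8 pseudogenes with a tRNA name among their synonyms, of isoleucine, leucine, tyrosine, glutamate, lysine or an undetermined kind. None of the 8 had a peak (0 of 8), and the nearest peak was 1170 to 114314 bp away. None of them carries an alanine name. Of other short RNA genes, a peak touched 14.6% of small nuclear RNA genes (12 of 82, median length 153 bp), 4.53% of small nucleolar RNA genes (13 of 287, 92 bp) and 4.29% of micro RNA genes (14 of 326, 144 bp). Beside these stand 5.51% of all windows of 73 bp and 23.6% of all nuclear genes, and the last 2 of the 3 shares lie near that of the windows. Windows of these genes' own lengths were not counted.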
